A study of Homo sapiens with 12 samples.

Results

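The transcript levels of 54 cell cycle and proliferation genes were followed in HepG2, an established human hepatoma cell line. The genes were taken by symbol from a table of 35984 genes, and all 54 passed the filter on low counts that left 16118 genes for testing. They were divided by the phase in which each gene is usually transcribed into 22 G1/S genes, which prepare and carry out DNA replication, and 32 G2/M genes, which carry out mitosis. RNA was sequenced from 12 libraries, 3 in each of 4 groups. The double knock-down cells (DKD) carried stably integrated shRNA cassettes against macroH2A1 and macroH2A2, delivered by retrovirus in pRetroSUPER vectors. The other cells are labelled control (CTL), and the labels do not say which vector or shRNA, if any, they carried. All cells of the 4 groups were kept overnight in 0.5% fetal bovine serum and then received either TNFα at 20 ng/mL or an equal volume of its vehicle (untreated) for 24 h, so every level reported here is that of serum-starved cells. The labels do not tell whether the 3 libraries within each group derive from separate cultures, and the spread on which the p-values rest may then be technical. Nor do they tell whether the DKD cells are 1 pool or clone of transduced cells, and a difference between the lines cannot be told apart from an effect of the knock-down.

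Cyclin-dependent kinases drive the cell cycle, and the genes that serve each phase are transcribed in waves. E2F transcription factors activate the G1/S genes once the retinoblastoma protein and its relatives are phosphorylated. The G2/M genes are held down in quiescent cells by the DREAM complex, which contacts their promoters at the cell cycle genes homology region (CHR), and are activated later by the transcription factors MYBL2 and FOXM1. Transcripts of both waves are abundant in dividing cells and scarce in resting ones. Macro-H2A histones are variants of H2A with a large additional domain, and TNFα is an inflammatory cytokine that acts mainly through NF-kB.

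The shRNA targets were low in the DKD line. In libraries 1, 2 and 3 of a group, in the order used throughout, MACROH2A1 stood at 205, 250.4 and 254 CPM (counts scaled to a common library size) in untreated CTL cells and at 32.4, 55.5 and 50.7 CPM in untreated DKD cells, and 19.5% of its mean level was left. MACROH2A2 retained 8.83%. Library totals ran from 30955080 to 42094144 counts, and no 2 libraries of a group were within sampling noise of each other. The hepatocyte-lineage markers ALB, AFP, APOA1, APOB, TTR, SERPINA1, FGB and HNF4A were detected in every library. Of the 8 markers of leukocytes, endothelium and fibroblasts, CD3E was at 0 in all libraries and VWF did not exceed 0.0489 CPM, and the 8 together summed to 7.14 to 16.7 CPM. The libraries numbered 1 stood apart. The DKD untreated library 1 had the highest share of mitochondrially encoded counts (10.3%, against 7.59% to 8.97% elsewhere) and the highest summed level of the hepatocyte markers (38020 CPM, against 16261 to 27605 CPM elsewhere). Results are therefore given with and without the libraries numbered 1.

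The promoters of the 54 genes were examined for the sequence elements that distinguish the 2 waves. RefSeq promoter windows of the GRCh38.p14 assembly, from 250 bases before to 50 bases after an annotated start, were found for 17 G1/S genes (23 windows, since some genes have several starts) and 26 G2/M genes (37 windows). The elements searched, on both strands, were of the following kinds. A CHR element was spelled TTNGAA, where N stands for T or C. An E2F element was spelled TTNNCGC, where each N stands for C or G. A CCAAT box was spelled as its name. A CHR element was present in 59.5% of the G2/M windows, 13% of the G1/S windows and 16.4% of all 35116 windows. An E2F element was present in 60.9% of the G1/S windows, 24.3% of the G2/M windows and 13% of all windows. A CCAAT box was present in 78.4% of the G2/M and 69.6% of the G1/S windows, against 34.6% of all. Windows with both a CHR element and a CCAAT box made up 54.1% of the G2/M windows and 6.38% of all windows. No member window had a CHR element overlapping an E2F element, 1 G2/M window had a CHR element overlapping a CCAAT box and 1 G1/S window had an E2F element overlapping one. Some windows of the same gene overlap and can hold the same element, so these are shares of windows and not of genes. A match is a description of the letters and not evidence of binding.

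The promoters of 5 genes are printed because their genes carry the results below: CDC25C and CCNB2 had the 2 most negative TNFα estimates in CTL cells, MKI67 was lower in DKD cells, CDT1 had the smallest deficit of the G1/S genes in library 1 of untreated DKD cells, and E2F1 had a TNFα estimate opposite in sign to nearly all others. Each runs 5′ to 3′ along the gene's strand over the 130 bases before the start, and capitals mark CHR, E2F and CCAAT elements on either strand. CDC25C (chr5:138331805-138331934, minus strand, the window of the start at which a CHR element lies at position -30), CCNB2 (chr15:59105016-59105145, plus strand), MKI67 (chr10:128126424-128126553, minus strand), CDT1 (chr16:88803659-88803788, plus strand) and E2F1 (chr20:33686386-33686515, minus strand) read as follows.
CDC25C: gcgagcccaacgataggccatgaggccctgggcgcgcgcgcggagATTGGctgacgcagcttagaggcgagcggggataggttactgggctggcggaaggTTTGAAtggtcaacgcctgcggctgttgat
CCNB2: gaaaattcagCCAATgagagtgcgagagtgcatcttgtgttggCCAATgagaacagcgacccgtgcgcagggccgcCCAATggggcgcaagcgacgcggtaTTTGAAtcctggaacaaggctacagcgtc
MKI67: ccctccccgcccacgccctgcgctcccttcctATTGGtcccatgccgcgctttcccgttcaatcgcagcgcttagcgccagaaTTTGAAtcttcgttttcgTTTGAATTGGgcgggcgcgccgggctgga
CDT1: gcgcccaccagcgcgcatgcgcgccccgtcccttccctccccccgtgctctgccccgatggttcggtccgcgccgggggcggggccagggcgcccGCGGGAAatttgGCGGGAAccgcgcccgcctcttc
E2F1: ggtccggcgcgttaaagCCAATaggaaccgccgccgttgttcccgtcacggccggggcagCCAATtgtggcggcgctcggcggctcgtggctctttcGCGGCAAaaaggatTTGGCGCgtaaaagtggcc
The first 3 have their CHR element near the start, at -30 in CDC25C, at -29 in CCNB2 and at -47 and -29 in MKI67, counted at the first base of the element. In MKI67 the element at -29 overlaps a CCAAT box. CDT1 and E2F1 have no CHR element in their windows and hold a pair of E2F elements each, at -35 and -23 in CDT1 and at -33 and -19 in E2F1. Of the 4 CDC25C windows, the 2 at the upstream starts have no CHR element. The CDC25C gene spans chr5:138285265-138338355 in the GENCODE v29 annotation of GRCh38, so the printed stretch lies inside the annotated gene. The CDT1 stretch also lies inside its gene (chr16:88803213-88809258). The stretches of CCNB2 (gene chr15:59105078-59125045) and E2F1 (gene chr20:33675683-33686404) lie partly inside theirs, and that of MKI67 (gene chr10:128096659-128126385) lies outside.

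The largest source of variation among the G1/S genes was the library number, not the line or the treatment. Of the variance of log2 CPM of a G1/S gene over the 12 libraries, the median share that went with library number was 50.8%, against 12.1% for treatment and 2.42% for line. For G2/M genes these medians were 17.7%, 22% and 4.42%, and over all genes tested they were 30.9%, 7.79% and 12.1%. The median share left unexplained was 29.5% for G1/S genes, 40.2% for G2/M genes and 19.4% over all genes tested. Library number takes more degrees of freedom than line or treatment, so noise alone gives it a larger share. In untreated DKD cells all 22 G1/S genes were lowest in library 1, by a median of 1.03 on the log2 scale below the mean of libraries 2 and 3 (log2 difference -1.03). In TNFα-treated DKD cells all 22 were again lowest in library 1 (median -0.65). In untreated CTL cells 21 of 22 were (median -0.30), whereas in TNFα-treated CTL cells 8 of 22 were (median -0.04). Library 1 was the lowest of its group for 36.9% to 42.7% of all genes tested.

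The G2/M genes did not follow the same order. In untreated DKD cells 29 of 32 were lowest in library 1 (median -0.52), but in TNFα-treated CTL cells 31 of 32 were highest in library 1 (median 0.40). In untreated CTL cells 20 of 32 were highest there (median 0.13). In TNFα-treated DKD cells 17 were lowest and 8 highest in library 1 (median -0.10). Library 1 was the highest of its group for 37% to 45.3% of all genes tested. RRM2, the small subunit of ribonucleotide reductase, which makes deoxyribonucleotides, stood at 213, 543 and 496 CPM in untreated DKD cells. CCNE1, which encodes the cyclin that activates CDK2 at the G1/S boundary, stood at 23.2, 62.1 and 60.3 CPM there. In both genes library 1 lay below libraries 2 and 3 by more than those 2 differed. CENPE, a kinetochore motor, went the other way, with 88.1, 68.8 and 79.8 CPM and its highest value in library 1. CDT1, which loads the replicative helicase at origins, had the smallest deficit in library 1 of the 22 G1/S genes, at 28, 31.5 and 32.1 CPM. The markers of other cell types summed to 7.14 to 10.8 CPM in the 4 libraries numbered 1 and to 9.61 to 16.7 CPM in the other 8, and their part in these differences was not tested.

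**Figure D1:**
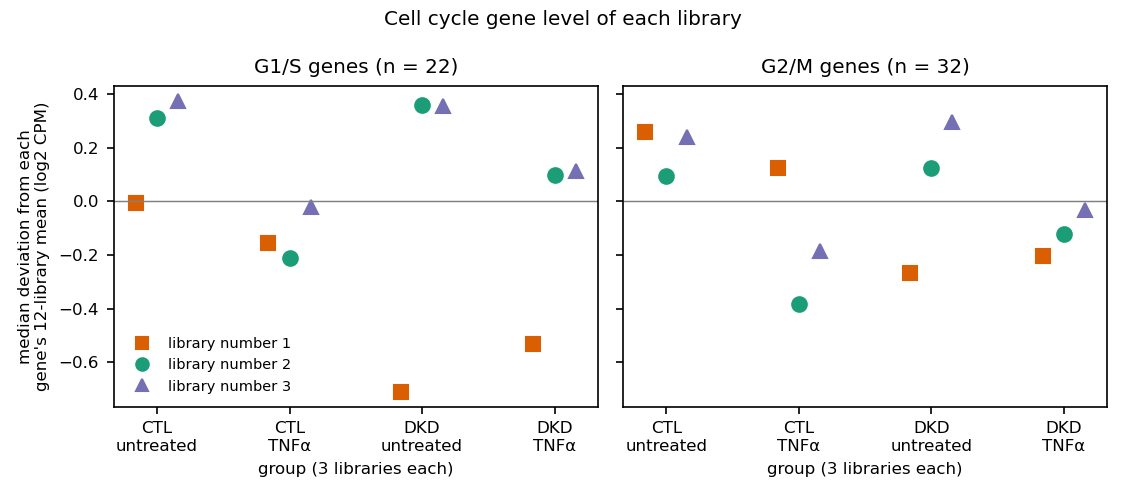
Median deviation of the 22 G1/S genes and the 32 G2/M genes of each library from the 12-library mean of each gene, in log2 CPM, with the 3 libraries of each group drawn by their number. The G1/S medians of the DKD libraries numbered 1 (-0.71 untreated, -0.53 with TNFα) lie below those of the other 10 libraries, which run from -0.21 to 0.37.

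In CTL cells nearly the whole set stood lower after TNFα. Of the 54 genes 51 had a negative log2 fold change, with a median of -0.36 for G1/S and -0.37 for G2/M genes, while the median of all genes tested was 0.00084. In bulk RNA fewer cycling cells and less RNA per cell cannot be told apart. The summed hepatocyte markers were lower with TNFα in all 3 pairs of CTL libraries (19687 to 21605 CPM untreated, 16261 to 18287 CPM with TNFα). Their list was divided. ALB, AFP, APOA1, TTR and FGB were lower in all 3 pairs, APOB and SERPINA1 higher in all 3, and HNF4A mixed. AFP went from 10000, 8997 and 8588 CPM to 4753, 5144 and 4496 CPM. APOB went from 6544, 7168 and 6375 CPM to 8961, 7939 and 7433 CPM. The summed markers of other cell types were also lower in all 3 pairs (10.8 to 16.7 and 8.93 to 13.4 CPM). The part of these markers in the difference was not tested. CDC25C, the phosphatase that activates CDK1 at entry into mitosis, was the 1 gene that passed the test (adjusted p under 0.05), where 2.62% of all genes tested were called and 0.726% were called lower. Its levels were 23.9, 21.8 and 23.4 CPM in untreated and 16.5, 13.4 and 15.1 CPM in treated CTL cells. The groups did not overlap, and CDC25C fell by 0.61 on the log2 scale (SE 0.12, adjusted p = 0.0216). The call held in 7 of 12 fits that left out 1 library, with adjusted p from 0.0045 to 0.108 over the 12, and was lost without any 1 of the untreated CTL libraries or without the TNFα-treated CTL library 2 or 3, where the log2 fold change ran from -0.68 to -0.56. The groups of 25 genes did not overlap with treated below untreated, against 11.7% of all genes tested, and 48 of 54 genes were lower in each of the 3 pairs of equal library number, against 25.6% of all genes.

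The cyclins, CDK1 and its activators included the 2 most negative estimates of the set, and all 8 of these genes were on the negative side (median -0.41). CCNB2, a cyclin partner of CDK1, stood at 83.2, 61.6 and 76 CPM untreated and 61.6, 41.6 and 47.8 CPM with TNFα, and its groups touched without overlapping, the highest treated library (61.6 CPM) lying just below the lowest untreated one. Its log2 fold change was -0.55 (SE 0.16), which was called lower once the library number was added to the model as a block (-0.55, SE 0.13, adjusted p = 0.0245). CCNA2, the cyclin of S phase and early mitosis, stood at 118, 128 and 141 CPM untreated and 99.1, 89 and 92.2 CPM with TNFα, with a log2 fold change of -0.46 (SE 0.24). CDK1, the kinase that triggers mitosis, stood at 119, 128 and 147 CPM untreated and 104, 94.2 and 94 CPM with TNFα, with no overlap (-0.44, SE 0.23). CCNB1, the other main mitotic cyclin, stood at 232, 178 and 219.6 CPM untreated and 203, 132 and 162 CPM with TNFα, and here treated library 1 lay above untreated library 2. FOXM1, the transcription factor of the late wave, stood at 164, 163 and 156 CPM untreated and 145, 103 and 122 CPM with TNFα without overlap (-0.39, SE 0.14). CDC25B and CCNF had the smallest differences of these genes, with log2 fold changes of -0.10 (SE 0.17) and -0.20 (SE 0.15).

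Kinases, checkpoint and kinetochore genes were on the negative side as well. TTK, the kinase at the head of the spindle checkpoint, stood at 24.3, 23.1 and 24.7 CPM untreated and 22.3, 16.6 and 16.7 CPM treated, without overlap (-0.37, SE 0.16). PLK4, which controls centriole duplication, stood at 59.3, 54.3 and 54.9 CPM untreated and 52.7, 40.5 and 42 CPM with TNFα, also without overlap. ESPL1, the separase that cuts cohesin, stood at 60.3, 72.3 and 76 CPM untreated and 58.1, 48.5 and 54.7 CPM with TNFα. In each of these 3 genes the smallest step was between the libraries numbered 1. CDC20, the activator of the anaphase-promoting complex, stood at 133, 96.4 and 127 CPM untreated and 108, 68.1 and 87.1 CPM with TNFα, and its groups overlapped. The mitotic kinase AURKA and CENPE also overlapped between groups (-0.39, SE 0.16 and -0.41, SE 0.25), and with the library block both were called lower (-0.40, SE 0.09 and -0.43, SE 0.10, adjusted p = 0.0178 and 0.0204). KIF11, the motor that separates the spindle poles, stood at 118, 120.0 and 126 CPM untreated and 112, 82.6 and 90.1 CPM with TNFα, and TOP2A, which untangles sister DNA, at 802, 698 and 769 CPM untreated and 715, 474 and 542 CPM with TNFα. MKI67, the gene of the Ki-67 antigen, stood at 706, 608 and 658 CPM untreated and 683, 412 and 527 CPM with TNFα, with treated library 1 within the untreated range. The remaining spindle and cytokinesis genes had estimates of -0.47 (SE 0.22) for KIF20A, -0.33 (SE 0.15) for HMMR, -0.25 (SE 0.16) for PRC1, -0.26 (SE 0.18) for KIF23 and -0.22 (SE 0.18) for TPX2. The centromere and chromosomal passenger genes CENPA, CENPF and BIRC5 stood at -0.40, -0.40 and -0.43 on the log2 scale, and the kinases PLK1, AURKB, BUB1 and BUB1B at -0.28, -0.41, -0.31 and -0.37. UBE2C and PTTG1, which act with CDC20 and separase at anaphase, both stood at -0.33. None of these genes passed the test with all libraries and no block. NUSAP1, a spindle-associated protein gene, had the smallest difference after CDC25B among the G2/M genes (-0.12, SE 0.12).

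Among the G1/S genes the origin licensing and helicase group was the most even, with all 9 members negative (CDC6, CDT1, MCM2 to MCM7 and CDC45, log2 fold changes from -0.48 to -0.33). Of the 9, 7 had no overlap, against 11.7% of all genes tested on the lower side. The genes share their libraries, so that these are not 7 separate observations. MCM3, a subunit of the replicative helicase, stood at 356, 407 and 423 CPM untreated and 294, 256 and 299.7 CPM treated (-0.48, SE 0.24). MCM2, another subunit, stood at 126, 159 and 167 CPM untreated and 111, 94.4 and 122 CPM with TNFα, and MCM5 at 90.3, 112 and 123 CPM untreated and 80.6, 74.1 and 92.7 CPM with TNFα. MCM5 overlapped between groups in that treated library 3 lay above untreated library 1. CDT1 was called lower with the block (-0.34, SE 0.10, adjusted p = 0.0476). PCNA, the sliding clamp of the replication fork, stood at 376, 439.9 and 454 CPM untreated and 315, 327 and 333 CPM with TNFα without overlap (-0.38, SE 0.24). TYMS, which makes thymidylate, stood at 224, 256 and 269.9 CPM untreated and 199, 185 and 203 CPM with TNFα, without overlap, and RRM2 at 343, 483 and 453 CPM untreated and 339, 368 and 367 CPM with TNFα, with overlap. In both genes treated library 1 lay closest to its untreated partner.

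The estimates of 3 G1/S genes were positive, and none of the 3 passed the test. E2F1, the activator of that programme, stood at 95.9, 95.3 and 95 CPM untreated and 132, 95.3 and 116 CPM treated (0.26, SE 0.20), so that treated library 2 was level with its untreated partner and the other treated libraries lay higher. CCNE1 stood at 37.2, 60.5 and 56.3 CPM untreated and 43.6, 53.6 and 58.8 CPM with TNFα, with groups that overlapped fully (0.02, SE 0.36). CCNE2, the second cyclin E gene, did the same (0.05, SE 0.36). Their kinase partner CDK2 (-0.42, SE 0.24) and the phosphatase CDC25A (-0.31, SE 0.27) stood on the negative side with the remaining genes, as did E2F2 (-0.35, SE 0.32), E2F8 (-0.33, SE 0.35), MYBL2 (-0.18, SE 0.22) and the repair gene UBE2T (-0.37, SE 0.25).

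The number of called genes moved with the libraries numbered 1. With the library number as a block, 5 of 54 genes were called lower in CTL cells (CDC25C, AURKA, CENPE, CCNB2 and CDT1), where 4.7% of all genes were called lower and 7.94% higher. With the libraries numbered 1 left out of all groups, 33 of 54 were called lower (16 G1/S and 17 G2/M genes), and none higher, where 5.91% of all genes were called lower and 7.88% higher. By pair of equal number, 48 genes were lower after TNFα in pair 1 (median log2 difference -0.18), 54 in pair 2 (-0.49) and 51 in pair 3 (-0.41). Over libraries 2 and 3 alone the log2 fold changes of the genes with the smallest p were -0.58 (SE 0.08) for CCNA2, -0.67 (SE 0.09) for CDC25C, -0.51 (SE 0.07) for KIF11, -0.58 (SE 0.08) for MCM3 and -0.55 (SE 0.08) for CDK1. That fit rests on 2 libraries a group.

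**Figure D2:**
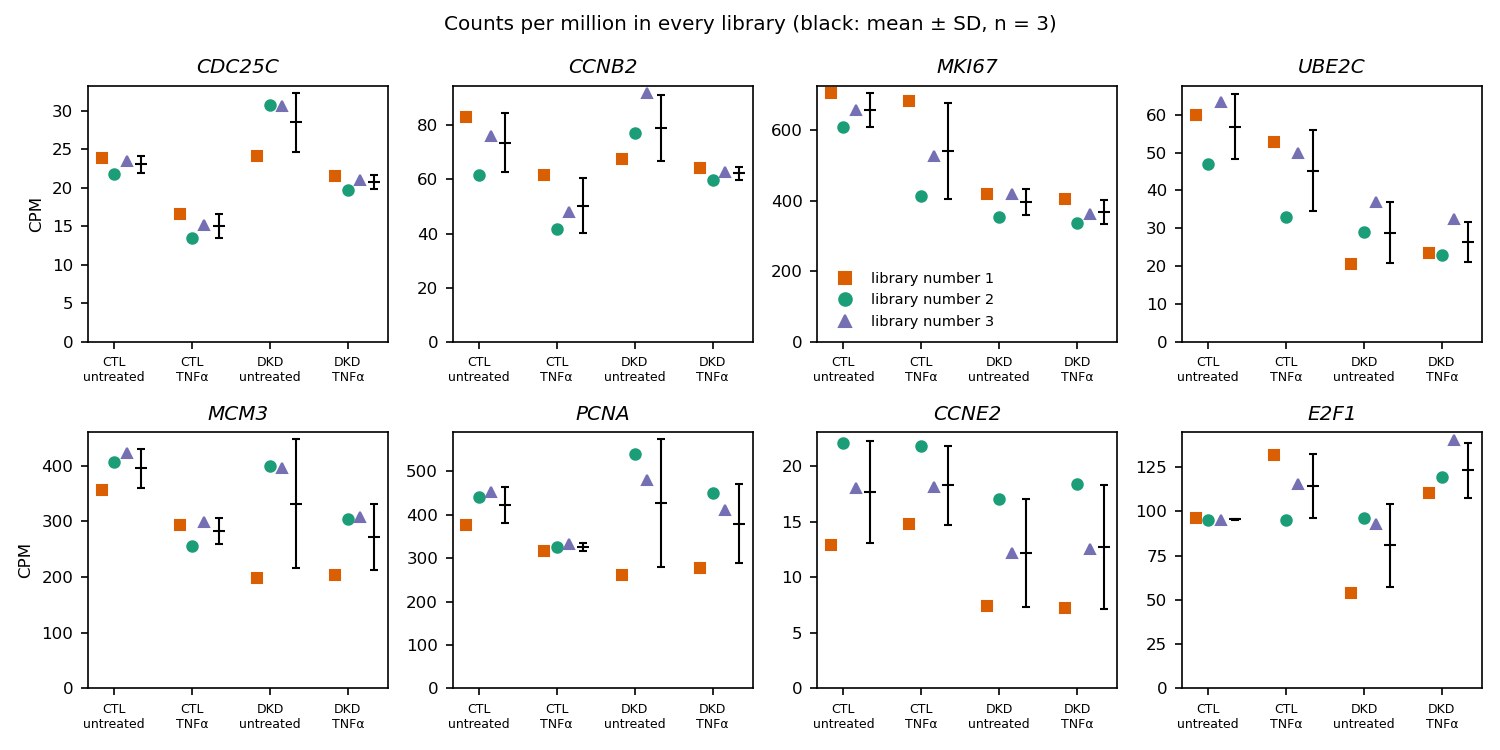
CPM of 8 of the genes in every library by group, with the mean and SD of the 3 libraries in black; all axes start at 0. CDC25C and CCNB2 lie lower with TNFα, and MKI67 and UBE2C lie lower in DKD cells. The DKD libraries numbered 1 (squares) lie far below libraries 2 and 3 for MCM3 and PCNA. For CCNE2 they are the lowest of their groups, but libraries 2 and 3 also lie apart.

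In DKD cells most of the set was again on the negative side with TNFα, and no gene was called. Of 54 genes 49 had a negative log2 fold change, with medians of -0.20 for G1/S and -0.17 for G2/M genes, against -0.0082 over all genes tested. When 1 library was left out these medians ran from -0.48 to -0.01 for G1/S genes and from -0.35 to -0.04 for G2/M genes, the most negative without DKD untreated library 1 and those nearest 0 without DKD TNFα library 1 (G1/S) or DKD untreated library 3 (G2/M). No gene of the 54 passed the test of edgeR (2 at an unadjusted p under 0.05, and 1 with DESeq2), where 1.79% of all genes tested were called. CDC25C stood at 24.1, 30.7 and 30.6 CPM in untreated and 21.5, 19.7 and 21 CPM in treated DKD cells, and its groups did not overlap. Its log2 fold change was -0.46 (SE 0.12) with adjusted p = 0.101, and with the block it was called lower (-0.46, SE 0.11, adjusted p = 0.0303), the 1 such gene of the 54, where 7.67% of all genes were called with the block, 2.13% lower and 5.55% higher. The groups of 4 genes did not overlap with treated below untreated, CDC25C, CCNB2, AURKA and PTTG1, against 5.25% of all genes tested.

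Pair 1 of the DKD line went the other way from pairs 2 and 3. In pair 1, 44 of 54 genes were higher after TNFα (median log2 difference 0.14), while 51 were lower in pair 2 (-0.26) and 51 in pair 3 (-0.31). TOP2A stood at 559.7, 710.5 and 770.1 CPM untreated and 641, 618 and 608 CPM treated, so that library 1 was lowest of the untreated and highest of the treated libraries. KIF11 stood at 64.8, 113 and 122 CPM untreated and 87.8, 99.98 and 99 CPM with TNFα, and ESPL1 at 32.2, 61.1 and 61.1 CPM untreated and 44.5, 51.2 and 54.6 CPM with TNFα. In both, the untreated library 1 lay below every treated library and the other untreated libraries above them. The same held for CDK1 with 67.9, 137 and 142 CPM untreated and 82.7, 116 and 105 CPM with TNFα and FOXM1 with 118, 162 and 161 CPM untreated and 125, 126 and 132 CPM with TNFα. For CDC20, at 81.9, 106 and 133 CPM untreated and 82.2, 74.2 and 97.8 CPM with TNFα, library 1 was level between the treatments and the other libraries were lower with TNFα. In pair 1, 10 genes were lower after TNFα. PTTG1, the securin that restrains separase, had the most negative difference there (-0.29 on the log2 scale), followed by CDT1, CDC25C and AURKA.

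The replication genes of the DKD line had library 1 low in both treatments. MCM2 stood at 83.4, 159 and 168 CPM untreated and 84.1, 119 and 133 CPM treated, MCM5 at 57.3, 122 and 135 CPM untreated and 64.3, 94.7 and 112 CPM with TNFα, and MCM3 at 199, 401 and 397 CPM untreated and 204, 305 and 308 CPM with TNFα. In all 3, library 1 was slightly higher and libraries 2 and 3 were lower with TNFα. PCNA stood at 276, 450.1 and 412 CPM after treatment, from 262, 540.5 and 479.9 CPM, and CDC6, which helps load the helicase, at 87.2, 171 and 162 CPM from 79.4, 210.3 and 212 CPM. RRM1, the large subunit of ribonucleotide reductase, stood at 97.3, 185 and 183 CPM untreated and 98.3, 149 and 136 CPM with TNFα, and CDC25A at 40.2, 86.9 and 87.2 CPM untreated and 44, 70.4 and 71.1 CPM with TNFα. Without the libraries numbered 1, 13 of 54 genes were called lower and 1 higher, where 8.43% of all genes were called, 2.77% lower and 5.66% higher. Those with the smallest p were CDC25C (-0.60, SE 0.09), CCNA2 (-0.44, SE 0.08), PLK4 (-0.30, SE 0.06), MCM3 (-0.39, SE 0.08), TTK (-0.37, SE 0.08), CDC25A (-0.31, SE 0.07), RRM1 (-0.38, SE 0.08) and CDC6 (-0.35, SE 0.08).

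E2F1 again differed in sign from most G1/S genes. It stood at 53.9, 96.1 and 92.6 CPM in untreated and 110.0, 119 and 140.2 CPM in treated DKD cells, with every treated library above every untreated one, as for 7.03% of all genes tested. Its log2 fold change was 0.61 (SE 0.20), which did not pass the test (adjusted p = 0.229), and without the libraries numbered 1 it was 0.45 (SE 0.11) and was called (adjusted p = 0.0448). CCNE1 stood at 31.4, 60.9 and 60.1 CPM after treatment, and it and CCNE2 had estimates near 0 (0.06, SE 0.36 and 0.06, SE 0.36). NUSAP1 was the other gene whose treated libraries all lay above the untreated ones, at 51.4, 60.7 and 63.7 CPM untreated and 65.8, 68.5 and 67.1 CPM treated (0.20, SE 0.12, not called).

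**Figure D3:**
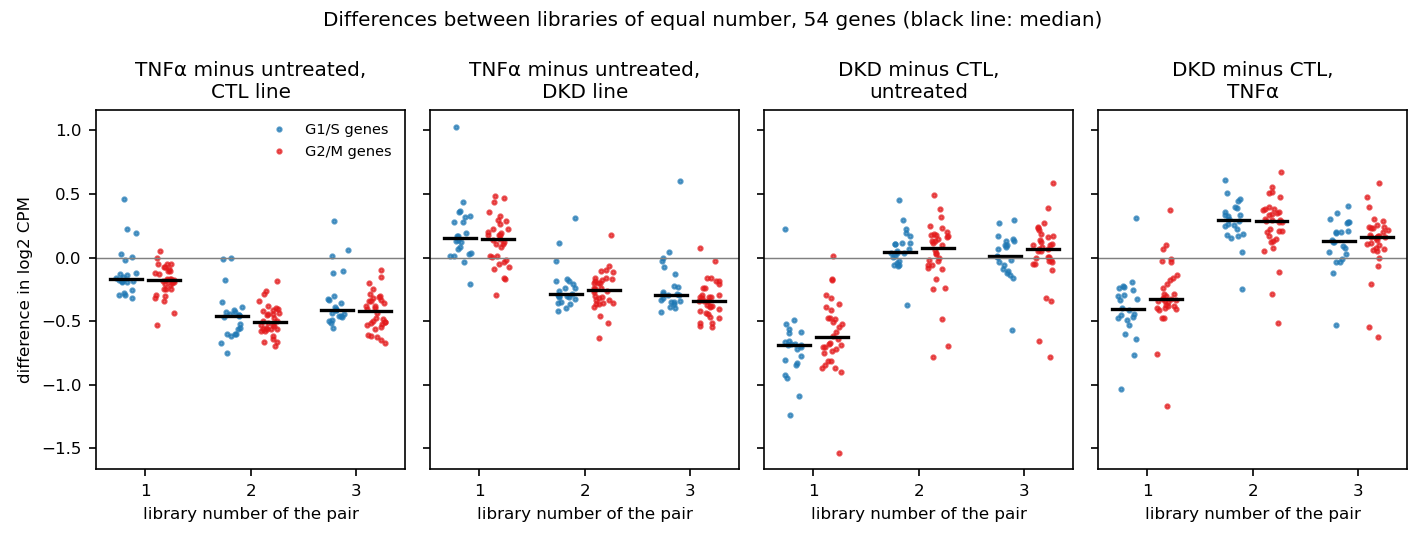
Difference in log2 CPM between libraries of equal number for the 54 genes (blue G1/S, red G2/M, black lines medians), for TNFα against untreated in each line and for DKD against CTL in each treatment. Pair 1 lies apart from pairs 2 and 3 in the 3 panels that use a DKD library, with medians over the 54 genes of 0.14 for TNFα in DKD cells, -0.68 for DKD without and -0.33 for DKD with TNFα.

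**Figure D4:**
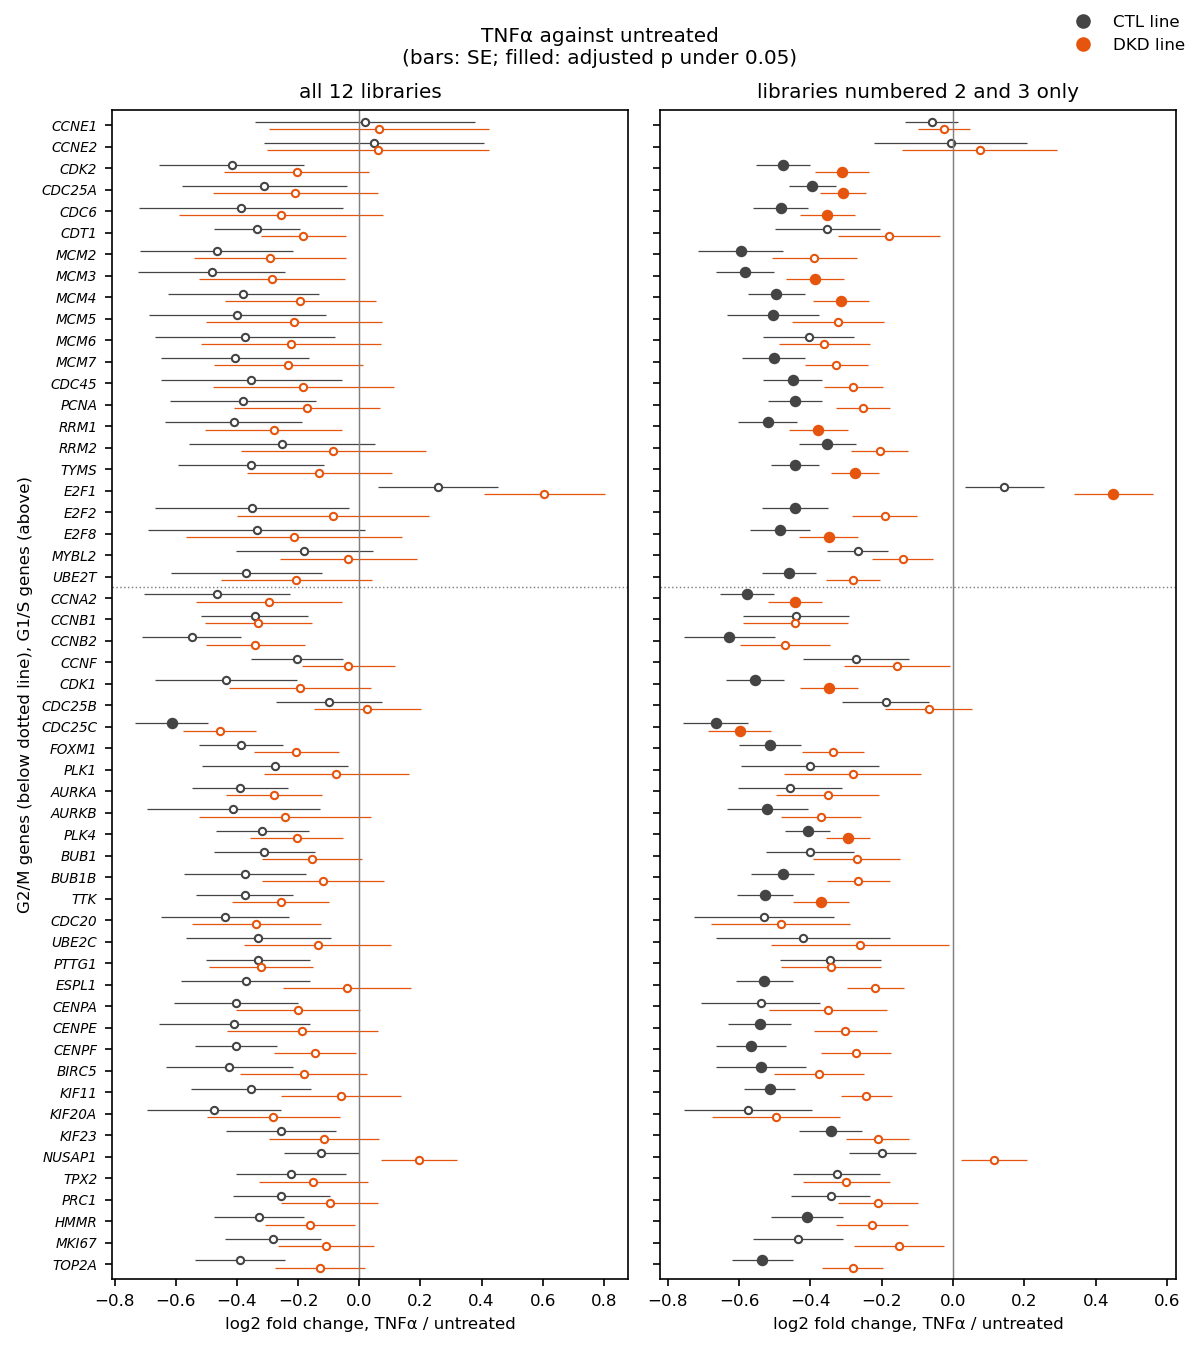
Log2 fold change of each gene with TNFα (bars SE, filled points adjusted p under 0.05) in the CTL line and the DKD line, from all 12 libraries (left) and from libraries 2 and 3 only (right). Filled points number 1 in CTL and 0 in DKD cells on the left, and 33 and 14 on the right, and E2F1 lies on the positive side in both panels.

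Between the untreated lines MKI67 and UBE2C were lower in DKD cells. MKI67 stood at 706, 608 and 658 CPM in CTL and 418, 354 and 417 CPM in DKD cells, and UBE2C, the ubiquitin-conjugating enzyme of the anaphase-promoting complex, at 59.9, 47.1 and 63.4 CPM in CTL and 20.7, 29.1 and 36.9 CPM in DKD cells. Neither gene's groups overlapped, and for MKI67 the DKD library 1 was level with DKD library 3. The log2 fold change was -0.73 (SE 0.16) for MKI67 (adjusted p = 0.0214) and -0.98 (SE 0.24) for UBE2C (adjusted p = 0.0423). The hepatocyte markers summed to 19687 to 21605 CPM in untreated CTL and 24970 to 38020 CPM in untreated DKD cells. ALB stood at 550, 477 and 390 CPM in CTL and 8437, 5605 and 4685 CPM in DKD cells. APOB was higher in DKD cells in pair 1 and lower in pairs 2 and 3, and the other hepatocyte markers were higher in every pair. The part of these markers in the MKI67 and UBE2C differences was not tested. MKI67 and UBE2C were the 2 called genes of 54, where 4.98% of all genes tested were called, 1.86% lower and 3.13% higher. MKI67 remained called without the libraries numbered 1 (-0.71, SE 0.13) and in 9 of 12 fits that left out 1 library, failing without CTL untreated library 1 or 3 or DKD untreated library 2 (log2 fold change -0.73 to -0.66, adjusted p up to 0.0865 and no lower than 0.0061 over the 12). UBE2C failed without the libraries numbered 1 (-0.74, SE 0.25, adjusted p = 0.0968) and in 8 of 12 fits that left out 1 library (adjusted p 0.0333 to 0.161 over the 12, log2 fold change -1.20 to -0.78), namely without any CTL untreated library, DKD untreated library 1 or 2, CTL TNFα library 1 or 3 or DKD TNFα library 2.

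The other genes of the set showed no common difference between the untreated lines. The median log2 fold change was -0.13 for G1/S and -0.14 for G2/M genes with all libraries, against 0.011 over all genes tested, and 44 of 54 were negative. Without the libraries numbered 1 the medians were 0.04 and 0.07, and 36 of 54 were positive. Leaving out DKD untreated library 1 alone gave 36 positive genes as well, with medians of 0.13 and 0.03, and leaving out DKD untreated library 3 gave -0.29 and -0.30. By pair, 52 of 54 genes were lower in DKD cells in pair 1 (median -0.68), 19 in pair 2 (median 0.06) and 20 in pair 3 (median 0.06). CDK1, at 119, 128 and 147 CPM in CTL and 67.9, 137 and 142 CPM in DKD cells, MCM5, at 90.3, 112 and 123 CPM in CTL and 57.3, 122 and 135 CPM in DKD cells, and TOP2A, at 802, 698 and 769 CPM in CTL and 559.7, 710.5 and 770.1 CPM in DKD cells, show the pattern: DKD library 1 lay below every CTL library and DKD libraries 2 and 3 lay within or above the CTL range.

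A few genes departed from the rest of the set in both directions. CENPE stood at 143, 96.3 and 101 CPM in CTL and 88.1, 68.8 and 79.8 CPM in DKD cells, the third gene without overlap on the lower side, where 10.4% of all genes had none. It was called lower with the block (-0.50, SE 0.10, adjusted p = 0.00791) and without the libraries numbered 1 (-0.40, SE 0.09). CCNE2 stood at 13, 22.1 and 18.1 CPM in CTL and 7.38, 17 and 12.2 CPM in DKD cells, lower in each of the 3 pairs although the groups overlapped, and was called with the block (-0.58, SE 0.14, adjusted p = 0.0159). With the block 4 of 54 genes were called lower (MKI67, UBE2C, CENPE and CCNE2), where 7.31% of all genes were called lower and 9.17% higher. CDC25C lay higher in DKD cells, at 24.1, 30.7 and 30.6 CPM against 23.9, 21.8 and 23.4 CPM, the 1 gene without overlap on the higher side, where 11.3% of all genes had none (0.31, SE 0.12, adjusted p = 0.202). Without the libraries numbered 1, 5 of 54 genes were called, where 12.3% of all genes were, 7.16% higher and 5.13% lower. CDC25C was then called higher (0.44, SE 0.09), as were the checkpoint kinase BUB1 (0.49, SE 0.12) and the repressor E2F8 (0.38, SE 0.08). BUB1 stood at 108, 92.5 and 101 CPM in CTL and 96, 120.6 and 151 CPM in DKD cells, and E2F8 at 17.9, 25.9 and 27.5 CPM in CTL and 12.1, 35.4 and 33.7 CPM in DKD cells. In both, DKD libraries 2 and 3 lay above every CTL library while DKD library 1 lay below every CTL library for E2F8 and within the CTL range for BUB1.

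With TNFα the estimates for the set lay on both sides of 0, and CDC25C was higher in DKD cells. CDC25C stood at 16.5, 13.4 and 15.1 CPM in CTL and 21.5, 19.7 and 21 CPM in DKD cells, without overlap. Its log2 fold change was 0.46 (SE 0.12), with adjusted p = 0.0433, and it was the 1 called gene of 54, where 6.24% of all genes tested were called, 3.94% higher and 2.3% lower. The call was lost in 11 of 12 fits that left out 1 library (adjusted p 0.0116 to 0.196 over the 12, log2 fold change 0.38 to 0.53), the exception being the fit without DKD untreated library 1. It was also lost with library totals in place of scaling factors, with no filter, and with only the 2 groups compared in the model (log2 fold change 0.46 to 0.47). Of 54 genes 33 had a positive estimate, with medians of 0.03 for G1/S and 0.05 for G2/M genes, against 0.0016 over all genes tested.

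With TNFα the MKI67 and UBE2C estimates were negative as well, and neither passed the test with all libraries and no block. MKI67 stood at 683, 412 and 527 CPM in CTL and 404, 338 and 361 CPM in DKD cells, and UBE2C at 52.8, 32.9 and 50.0 CPM in CTL and 23.4, 23 and 32.4 CPM in DKD cells. For both genes the highest DKD library lay just below the lowest CTL library, as for 12.1% of all genes tested. The estimates were -0.56 (SE 0.16) and -0.78 (SE 0.24), with adjusted p = 0.063 and 0.0892, and with the block both were called (-0.54, SE 0.09 and -0.79, SE 0.18), together with CCNE2 (-0.60, SE 0.14), lower, and CDC25C and CDT1 (0.35, SE 0.10), higher. Without the libraries numbered 1 neither MKI67 (-0.42, SE 0.13) nor UBE2C (-0.58, SE 0.25) was called. When 1 library was left out MKI67 was called in 2 of 12 fits, its log2 fold change running from -0.36 without CTL TNFα library 1 to -0.72 without CTL TNFα library 2, and UBE2C was called in 1 of 12. Over all alternatives the UBE2C estimate ran from -0.97 to -0.57. Those 5 of 54 compare with 19.4% of all genes called with the block, 10.6% higher and 8.79% lower. CCNE2 stood at 14.8, 21.9 and 18.2 CPM in CTL and 7.22, 18.4 and 12.6 CPM in DKD cells, lower in each pair.

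Libraries 2 and 3 placed most of the set higher in treated DKD than in treated CTL cells. By pair, 50 of 54 genes were lower in DKD cells in pair 1 (median -0.33), 4 in pair 2 (median 0.29) and 10 in pair 3 (median 0.16). Without the libraries numbered 1, 48 of 54 estimates were positive and 11 genes were called higher and none lower, where 14.7% of all genes were called, 8.58% higher and 6.14% lower. These included E2F8, at 18.2, 19.1 and 19.2 CPM in CTL and 15.5, 29.1 and 25.5 CPM in DKD cells (0.51, SE 0.08), and PCNA, at 315, 327 and 333 CPM in CTL and 276, 450.1 and 412 CPM in DKD cells (0.39, SE 0.07). BUB1, at 96.6, 67.5 and 79.2 CPM in CTL and 104, 108 and 119 CPM in DKD cells, was higher in all 3 pairs without overlap, as were 13.2% of all genes without overlap on that side, and was called in that fit (0.63, SE 0.12) but not with all libraries (0.44, SE 0.16). PLK4, at 52.7, 40.5 and 42 CPM in CTL and 42.7, 51.3 and 49.4 CPM in DKD cells (0.29, SE 0.06), and E2F2, an activating E2F, at 18.4, 19 and 22.2 CPM in CTL and 15.6, 26.9 and 26.8 CPM in DKD cells (0.39, SE 0.09), were also called there. For E2F8, PCNA and E2F2 the treated DKD library 1 lay below every treated CTL library.

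**Figure D5:**
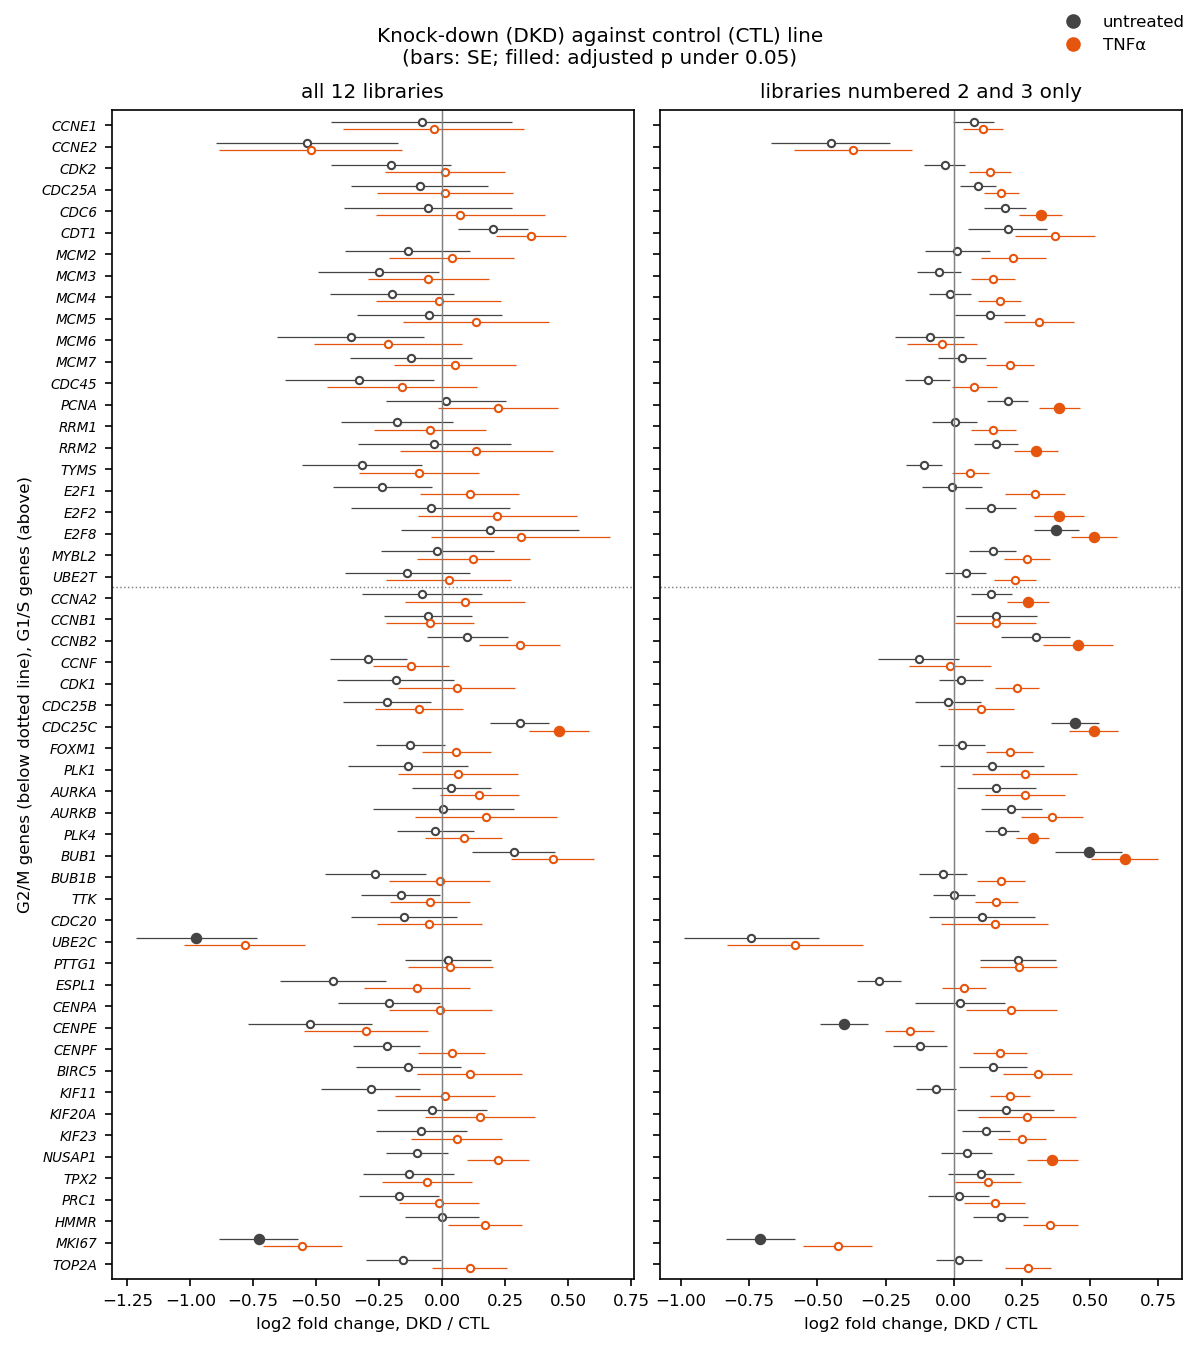
Log2 fold change of each gene between DKD and CTL cells (bars SE, filled points adjusted p under 0.05), untreated and with TNFα, from all 12 libraries (left) and from libraries 2 and 3 only (right). MKI67 and UBE2C lie far on the negative side in both panels. The untreated medians of all G1/S and of all G2/M genes move from the negative to the positive side without the libraries numbered 1.

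The difference between the 2 TNFα responses was tested as the interaction of line and treatment. No gene of the 54 was called, and none had an unadjusted p under 0.05 with edgeR (0 called with DESeq2), and no gene of the 16118 was called (0%, with 184 at an unadjusted p under 0.05 and 5 called with DESeq2). All 54 estimates were positive, that is, the change in DKD cells lay above the change in CTL cells, with a median of 0.17 for both phases against -0.0011 over all genes tested. The estimates ran from 0.0089 for PTTG1 and 0.01 for CCNB1 to 0.32 (SE 0.17) for NUSAP1, 0.33 (SE 0.30) for ESPL1 and 0.35 (SE 0.28) for E2F1. The genes share their libraries, so that 54 equal signs are not 54 separate observations. Without the libraries numbered 1, 53 of 54 were positive (median 0.16, 3 genes at an unadjusted p under 0.05, none called). Without DKD untreated library 1 alone, 35 of 54 were negative (median -0.05), and without DKD untreated library 3 all 54 were positive (median 0.33).

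Of 120 other cell cycle genes outside the set, 119 were tested. With TNFα in CTL cells 105 of 119 had a negative estimate (median -0.27, against 0.00084 over all genes tested) and in DKD cells 104 (median -0.14, against -0.0082). The negative estimates in CTL cells included 38 of 39 genes of replication origins, forks and nucleotides and 37 of 38 of the kinetochore, spindle, condensin and cytokinesis. The CDK inhibitors were divided, with 4 of 7 tested on the positive side (median 0.06), and 10 of 15 pocket protein, MuvB and other E2F genes were negative. With edgeR none of the 119 was called in either line (18 in CTL and 7 in DKD cells at an unadjusted p under 0.05), where 2.62% of all genes were called in CTL and 1.79% in DKD cells. With the block 10 were called lower in CTL cells, where 4.7% of all genes were, among them the mitotic kinase gene NEK2 (-0.66, SE 0.14), the condensin subunit gene NCAPD2 (-0.38, SE 0.07), the checkpoint kinase gene CHEK2 (-0.40, SE 0.07) and the DNA ligase gene LIG1 (-0.44, SE 0.11). CDKN2B, an inhibitor of the cyclin D kinases, was the 1 gene called higher there, where 7.94% of all genes were (2.38, SE 0.36), from 0.486, 1.54 and 0.912 to 1.90, 8.09 and 5.98 CPM. CDKN1A, the inhibitor best known as a p53 target, had an estimate of 0.06 (SE 0.20) in CTL cells. With the block 2 were called higher in DKD cells, CDKN1B (0.27, SE 0.07) and the retinoblastoma gene RB1 (0.34, SE 0.06), and 4 lower, where 5.55% of all genes were called higher and 2.13% lower.

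Between the untreated lines 4 of these 119 genes were called, where 4.98% of all genes were. In untreated cells the origin recognition subunit genes ORC2 (0.56, SE 0.09) and ORC4 (0.37, SE 0.08) were higher in DKD cells, and CDKN2A (-2.05, SE 0.39) and the checkpoint gene BUB3 (-0.41, SE 0.07) were lower. ORC2 stood at 71.3, 63.1 and 68.9 CPM in CTL and 93.3, 101 and 106 CPM in DKD cells, and CDKN2A at 1.31, 1.54 and 1.46 CPM in CTL and 0.219, 0.381 and 0.429 CPM in DKD cells. Neither overlapped, and in neither did DKD library 1 change the side on which the group lay. With TNFα the same 4 genes were called in the same directions, together with CDKN1B (0.35, SE 0.08), higher, and E2F4, a repressing E2F (-0.31, SE 0.07), lower, so that 6 of 119 were called against 6.24% of all genes. CDKN2A and CDKN2B lie in a locus with an overlapping antisense RNA, and since it is not stated whether the counts used strand, reads of these genes and the antisense RNA cannot be told apart.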

How the data were processed

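The submitters' processing notes name CASAVA 1.7, Salmon 0.14.0, DESeq2 and GRCh38 for these 12 libraries of total RNA. The gene annotation, how transcripts were summed to genes and whether strand was used were not stated in them. The values used are the estimated counts per gene as the authors deposited them, in whole numbers. Samples were grouped by the labels. Genes passing edgeR's filterByExpr (minimum count 10, minimum total 15) were fitted with edgeR 4.0.16 (R 4.3.3) by the quasi-likelihood test over all 12 libraries and 4 group means, with TMM scaling and 8 residual degrees of freedom, and 5 contrasts were tested. P-values were Benjamini-Hochberg adjusted over all 16118 genes, and called means adjusted p under 0.05. CPM are TMM-scaled, and log2 CPM use a prior count of 2. A fold change is on the log2 scale. On simulated counts for TNFα in CTL cells (15904 genes), 56.1% of changes of 1 and 88.9% of changes of 2 on the log2 scale were recovered. The simulated libraries were drawn independently, without a deviation shared by libraries of equal number, so the recovery in the real data may differ. The replicate number of the titles was used as a block in a second fit. The reason was that libraries of equal number deviated together from their group means in 18 of 18 pairs across groups (r 0.193 to 0.695, median 0.328). Pairs of unequal numbers had a median r of -0.29. The deviations within a group cancel out by construction. Positive r at equal numbers therefore pulls r at unequal numbers down, and a negative r there is no separate support for the block. Unequal pairs with a library 1 were all negative (-0.544 to -0.201), and pairs of a library 2 with a library 3 were all positive (0.039 to 0.311). The values thus mainly set the libraries numbered 1 apart from those numbered 2 and 3. What the replicate number stands for is not given. The other alternatives were the scaling, the filter, DESeq2 1.42.0, the samples in the fit and leaving out libraries. Genes described with values were a fixed set of 12 markers, the called genes and, per contrast, up to 8 with the smallest p among those called with the block or without the libraries numbered 1; other genes singled out were chosen after their values were seen. The members and the gene lists were chosen with earlier results of these data known. Normalised values deposited beside the counts were not used.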

Additional observations from a re-analysis of the deposited data

Results flagged for a closer look

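NUSAP1, which encodes a spindle-associated protein, was lower with TNFα in each of the 3 pairs of CTL libraries and higher in each of the 3 pairs of DKD libraries. The interaction estimate was 0.32 on the log2 scale (SE 0.17), and edgeR's quasi-likelihood test of it did not call the gene (adjusted p = 1 with Benjamini-Hochberg adjustment over all genes tested).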

How the results depend on the processing

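The numbers of called genes among the 54 with all libraries and no block were 1 (TNFα in CTL), 0 (TNFα in DKD), 2 (DKD without TNFα), 1 (DKD with TNFα) and 0 (interaction, also 0 under every alternative run). In the order of the first 4 comparisons, the replicate block gave 5, 1, 4 and 5, leaving out all libraries numbered 1 gave 33, 14, 5 and 11, and leaving out 1 library gave 0 to 2, 0 to 1, 0 to 2 and 0 to 3. DESeq2 gave 2 for TNFα in CTL, 1 for TNFα in DKD and 3 for DKD with TNFα. A fit with only the groups compared gave 5 for TNFα in CTL, 1 for DKD without and 0 for DKD with TNFα, and library totals alone and no filter each gave 0 for DKD with TNFα. Chosen after seeing the data, leaving out both DKD libraries numbered 1 gave 19 for TNFα in CTL, 2 for TNFα in DKD and 2 for DKD with TNFα, and the block with libraries 2 and 3 only gave 49, 44, 13 and 33. That last fit turned CCNB1 (0.16 without and 0.16 with TNFα), PLK4 (0.18) and KIF20A (0.19) to higher in DKD cells. The cause of these changes was not tested. The block changed no call other than those given beside the results. Fewer libraries or groups leave fewer residual degrees of freedom. Leaving out 1 library moved the G1/S median of TNFα in CTL cells between -0.46 and -0.31 and the G2/M median between -0.51 and -0.28, and for DKD with TNFα between -0.09 and 0.21 (G1/S) and between -0.09 and 0.16 (G2/M). Changes below 1 on the log2 scale were not simulated.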
